A study of Mus musculus with 12 samples.

Results

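The nuclear receptors of mouse epididymal white adipose tissue (eWAT) were described here across 4 diets. They were 46 genes of 23131 in the deposited table, chosen by a rule on gene symbols. Of the 46, 31 reached 1 FPKM in 3 or more libraries, the filter on low values that 12814 genes passed. Transcripts of male C57BL/6J mice, 21 weeks old, were measured by mRNA sequencing (RNA-Seq) of whole tissue, 3 mice in each of 4 groups. The study asked how a leaf extract and a flavone act in mice made obese by diet. The ND group ate a normal diet and the HFD group a high-fat diet. The CLE group ate the high-fat diet with 1.5% (w/w) of an ethanol extract of chrysanthemum leaves, and the LU group ate it with 0.003% (w/w) luteolin, a plant flavone. Each diet was fed for 16 weeks, and all mice were fasted before tissue was taken. The mice sequenced were picked by the study as representative of larger groups, which limits how far 3 mice stand for a diet.

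Nuclear receptors are transcription factors, most of which bind a small lipophilic ligand such as a steroid, a thyroid hormone, a retinoid, an oxysterol or a fatty acid. Many bind DNA next to a retinoid X receptor (RXR) as a partner, on repeats of the hexamer AGGTCA, and then recruit coactivators or corepressors. In white fat, PPARG directs the formation and lipid storage of adipocytes, the liver X receptors sense oxysterols, the glucocorticoid receptor acts on differentiation and lipolysis, and the REV-ERB receptors repress genes of the circadian clock.

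Values are FPKM, the fragments mapped to a transcript scaled by its length and by the size of the library, so levels can be set side by side between genes. Only these scaled values were analysed, so the number of reads behind each is unknown. Totals over genes ran from 438191 to 458413 FPKM per library. Over all transcript rows, including the 9326 left out of the genes, they ran from 1290982 FPKM in HFD mouse 12 to 6409288 in LU mouse 3. Whether the rows left out affect the scaling was not tested. The tissue label was checked on 6 adipocyte markers (Adipoq, Plin1, Lep, Fabp4, Cidec and Lipe), which summed to 26000 to 27600 FPKM in ND, 15600 to 17600 in HFD, 23200 to 24900 in CLE and 21700 to 26700 in LU. The 7 macrophage markers summed to 321 to 499 FPKM in ND, 2200 to 2530 in HFD, 578 to 828 in CLE and 896 to 1010 in LU. The adipocyte sum is mostly Fabp4, at 10460 to 20210 FPKM, and 5 of its 6 markers were on average lower in HFD than in ND, while Lep, which encodes leptin, was higher, at 1172 to 1291 FPKM in HFD against 194.5 to 301.8 in ND. Both sums differed between the diets. In whole tissue, fewer cells of a type and less RNA per cell cannot be told apart, and the part of the marker levels in any result below was not tested. Skeletal muscle markers summed to 16.2 FPKM in CLE mouse 11 and 6.44 in HFD mouse 12, against at most 1.15 in the other 10 libraries.

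Over the 12 libraries, 4 members averaged over 50 FPKM, 12 lay between 10 and 50, 15 between 1 and 10 and 15 under 1. Pparg was highest at 84.5 ± 14.4 FPKM (SD, n = 12), followed by the RXR gene Rxra at 68.9 ± 11.2, the thyroid hormone receptor Thra at 62.0 ± 13.1 and the liver X receptor Nr1h3 at 58.9 ± 3.65. Their 12-library ranges overlapped. Within each library Pparg was above Rxra and Nr1h3, and it was above Thra in all but ND mouse 4 (73.1 against 80.8 FPKM). The order of Rxra, Thra and Nr1h3 changed between libraries. The next were Nr1d1 (38.0 ± 16.3), Nr1h2 (37.6 ± 2.94) and the glucocorticoid receptor Nr3c1 (36.5 ± 3.30), whose ranges also overlapped. The 15 members below the filter were Vdr, Nr1h4, Hnf4a, Esr2, Nr5a1, Nr1i3, Esrrb, Nr1i2, Rorb, Nr2e3, Pgr, Nr2e1, Hnf4g, Nr0b1 and Nr0b2, and the last 4 of these were listed at 0 in every library.

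**Figure D1:**
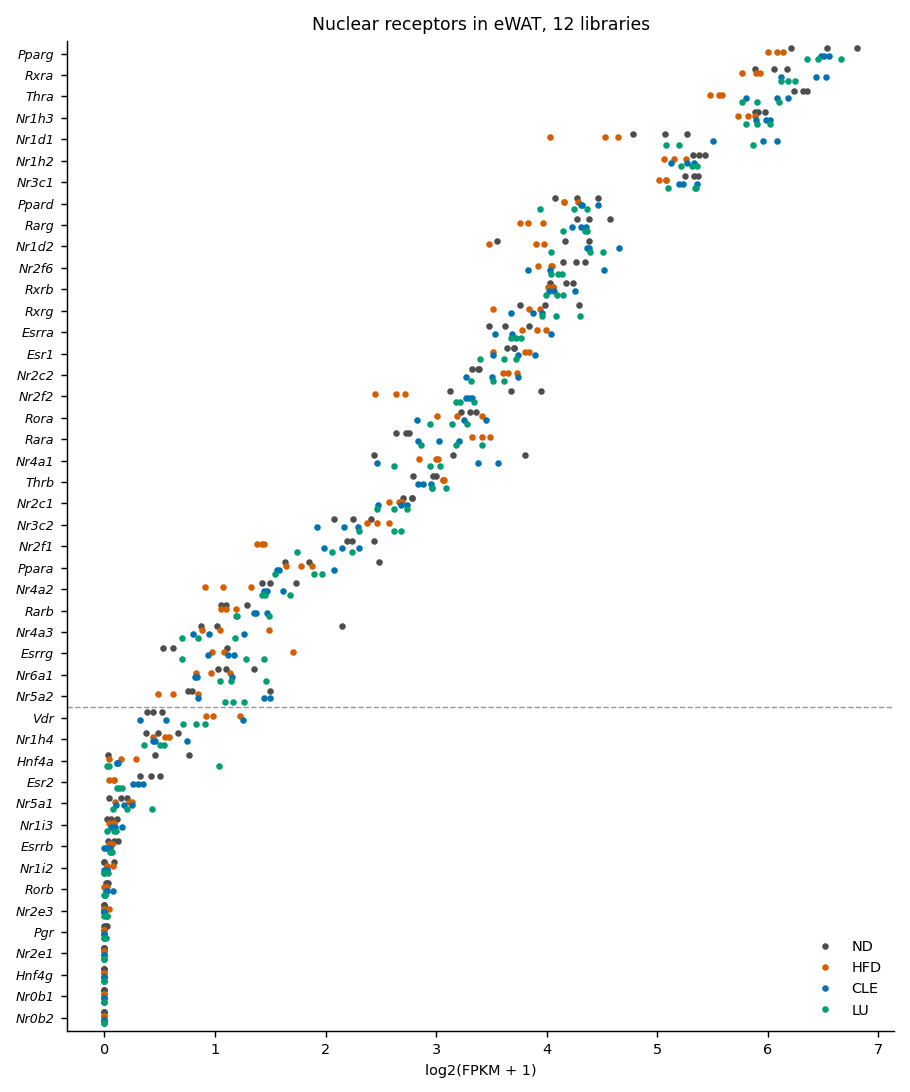
Level of each of the 46 nuclear receptors, as log2(FPKM + 1) on the horizontal axis, with 1 point per library coloured by group (3 mice each) and genes ordered by their mean FPKM. Pparg, at 63.2 to 111 FPKM, stands at the top, and the 15 genes under the dashed line did not pass the filter on low values.

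Differences were tested with limma on log2(FPKM + 1) over all 12814 genes, and a gene was called where the Benjamini-Hochberg adjusted p was under 0.05 and the fold change over 1.5. All fold changes are on that scale, which understates the change of low genes. Of the 31 members tested, 5 were called in HFD against ND. Rara was the 1 called higher, where 14.9% of all genes tested were, and Thra, Nr1d1, Nr2f1 and Nr2f2 were the 4 called lower, against 10.8% of all genes. In CLE against HFD the 5 called were all higher (Nr1d1, Nr1d2, Nr2f1, Nr2f2 and Nr5a2), where 6.34% of all genes were called higher and 10.2% lower. In LU against HFD the 3 called were all higher (Nr1d1, Nr2f1 and Nr2f2), where 4.77% of all genes were called higher and 7.68% lower. The CLE and LU comparisons share the same 3 HFD mice. Without CLE mouse 4, or without HFD mouse 15, the CLE count was 3, and without LU mouse 2 the LU count was 1.

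By the adjusted p alone, 1 member was higher and 8 were lower in HFD than in ND, where 25.7% of all genes tested were higher and 24.8% lower. In CLE against HFD 11 members were higher and 1, Rara, was lower, where the background was 15.6% higher and 18.2% lower. In LU against HFD 7 members were higher and 0 were lower, where 13.3% of all genes were higher and 13.8% lower. The median log2 fold change of the 31 tested members was -0.19 in HFD against ND, 0.13 in CLE against HFD and 0.10 in LU against HFD, beside -0.02, 0.01 and 0.03 over all genes tested.

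**Figure D2:**
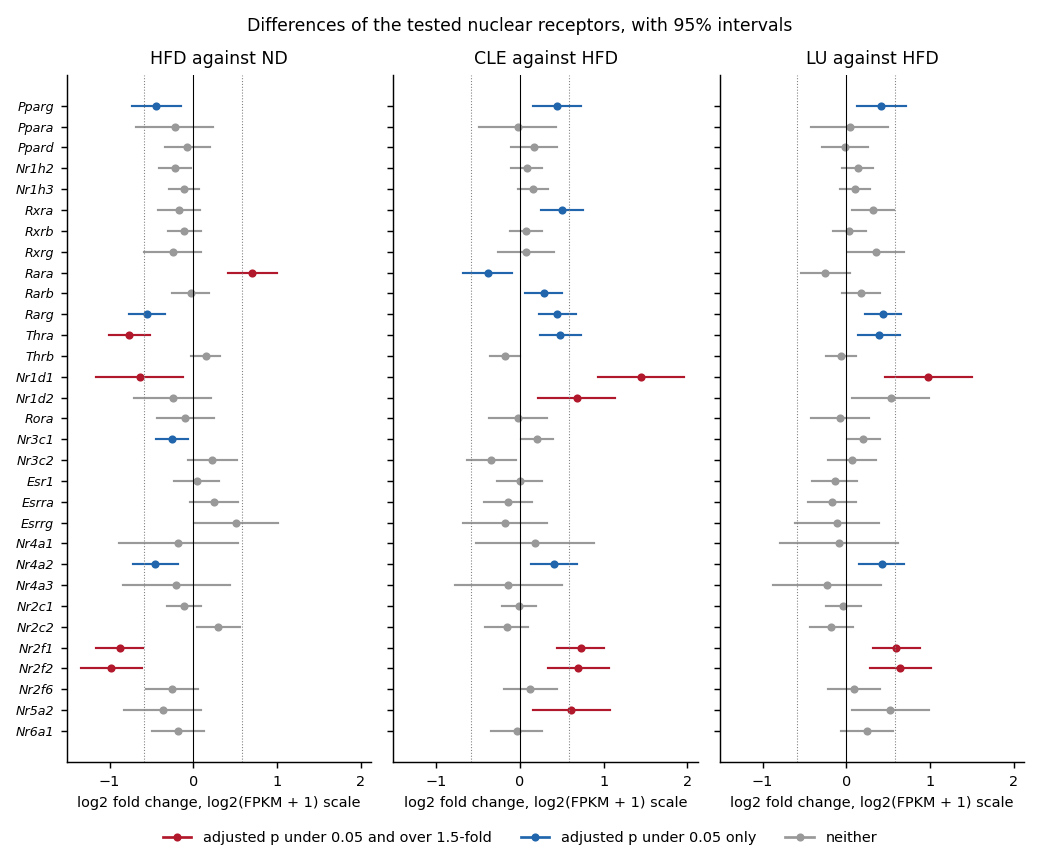
Log2 fold change (horizontal axis, on the log2(FPKM + 1) scale) of the 31 tested nuclear receptors in 3 comparisons, with 95% intervals from limma; dotted lines mark 1.5-fold and colours the adjusted p and the fold. The estimates of Thra, Nr2f1 and Nr2f2 lie left of the lower line in HFD against ND, and Nr1d1 reaches 1.44 in CLE against HFD.

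Among the lipid sensors, Pparg was lower in HFD than in the other groups, by less than 1.5-fold. PPARG, the receptor of fatty acids and thiazolidinediones that drives adipocyte formation, has a gene on chromosome 6 (chr6:115360951-115490399, plus strand, GENCODE M21 on GRCm38). Its transcripts begin at upstream starts, which give the widely expressed protein, or at a downstream start, which gives the longer adipocyte form. Both kinds of transcript have values of their own here, so RefSeq (GRCm38.p6) windows are shown for both. They hold 250 bases before and 50 after the outermost RefSeq upstream start and the downstream start, with AGGTCA or its reverse complement in capitals:
Pparg upstream start, chr6:115360894-115361193, plus strand: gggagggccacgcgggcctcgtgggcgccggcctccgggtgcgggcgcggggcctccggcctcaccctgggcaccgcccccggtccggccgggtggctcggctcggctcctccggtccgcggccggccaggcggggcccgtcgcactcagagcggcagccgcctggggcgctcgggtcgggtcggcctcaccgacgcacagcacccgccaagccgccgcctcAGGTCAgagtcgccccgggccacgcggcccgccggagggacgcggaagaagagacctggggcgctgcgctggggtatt
Pparg downstream start, chr6:115421816-115422115, plus strand: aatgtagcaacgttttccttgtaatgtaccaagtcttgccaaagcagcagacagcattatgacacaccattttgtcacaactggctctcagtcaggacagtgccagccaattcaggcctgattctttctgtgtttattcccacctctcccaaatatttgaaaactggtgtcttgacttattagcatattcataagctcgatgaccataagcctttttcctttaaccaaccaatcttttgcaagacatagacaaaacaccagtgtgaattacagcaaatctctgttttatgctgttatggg
The upstream window held 1 match, 28 bases before its start at 115361144, and 80.3% G or C, while the downstream window held 0 matches and 40.3% G or C. The outermost upstream transcript measured here begins at 115360965, ahead of that RefSeq start. A further RefSeq upstream window, chr6:115362099-115362398, is not shown, and held 1 match 9 bases before its start and 62.7% G or C. An assembled upstream transcript at 21.1 to 40.5 FPKM begins inside it, at 115362158. AGGTCA on either strand lay in 16.3% of all 32851 promoter windows and in 12 of 63 windows counted for 42 members. Windows of Nr3c1 were not counted among the 63.

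Summed over transcripts, Pparg was at 91.7, 111 and 73.1 FPKM in ND, 63.2, 69.3 and 66.6 in HFD, 93.2, 88.3 and 90.2 in CLE and 80.7, 100.4 and 86.5 in LU. The 3 HFD mice were lowest of the 12, and no HFD value overlapped another group. The log2 fold change was -0.44 ± 0.13 (SE; 95% interval -0.74 to -0.15, adjusted p = 0.0163) in HFD against ND, 0.44 ± 0.13 (SE; 95% interval 0.15 to 0.73, adjusted p = 0.0244) in CLE against HFD and 0.42 ± 0.13 (SE; 95% interval 0.12 to 0.71, adjusted p = 0.0386) in LU against HFD, which passed the adjusted p and not the fold. Over the 12 fits that each left out 1 library, the difference between HFD and ND ran from -0.60 to -0.30. It was called without ND mouse 4 (-0.60, adjusted p = 0.00189), and its adjusted p was 0.0606 without ND mouse 3 and 0.0554 without HFD mouse 12. The adjusted p passed 0.05 in 4 of the 12 fits for CLE and in 6 of the 12 for LU, reaching 0.0792 and 0.142.

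The transcript from the downstream start (Pparg-201) was at 35.9, 70.4 and 35.8 FPKM in ND, 21.3, 35.3 and 30.2 in HFD, 45.8, 32.8 and 40 in CLE and 35.2, 49.2 and 31.7 in LU. HFD overlapped CLE and LU here and lay just below ND, and ND mouse 3 stood far above the rest. The 4 upstream transcripts together were at 55.9, 40.4 and 37.3 FPKM in ND, 42, 34.1 and 36.4 in HFD, 47.4, 55.5 and 50.3 in CLE and 45.5, 51.2 and 54.7 in LU. For these, HFD lay below all CLE and LU mice and overlapped ND. Shares between transcripts are estimates made by the assembly software.

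Nr1h3 encodes LXR alpha, an oxysterol sensor of macrophages, liver and fat (chr2:91184061-91202834, minus strand). It was at 59.1, 61.9 and 58.2 FPKM in ND, 52.1, 58 and 55.5 in HFD, 63.9, 58.4 and 62.1 in CLE and 54.9, 64.1 and 58.7 in LU. All values lay within 52.1 to 64.1 FPKM, with HFD just below ND and CLE and overlapping LU. The log2 fold change was -0.11 (95% interval -0.29 to 0.07) in HFD against ND, 0.15 (95% interval -0.03 to 0.33) in CLE against HFD and 0.10 (95% interval -0.08 to 0.28) in LU against HFD, so that changes over 1.5-fold lay outside each interval (adjusted p = 0.274, 0.174 and 0.406). Over 26 alternative fits, 12 of them without 1 library, these estimates ran from -0.57 to -0.07, 0.11 to 0.43 and 0.04 to 0.36. Nr1h3 was called in 0 of the 26. Its adjusted p was under 0.05 in 1 of the 26 for each comparison, at 0.00186, 0.0147 and 0.0385. A single transcript row named Nr1h3 belongs to the predicted gene Gm13783 in GENCODE M21. The related Nr1h2 (LXR beta) was at 39.1 to 42.2 FPKM in ND and 32.5 to 37.4 in HFD (-0.22 ± 0.09 (adjusted p = 0.0501)). Ppara, the receptor of fatty acid oxidation, ranged over 1.92 to 4.58 FPKM with its highest value in ND mouse 2, and Ppard ranged over 14.4 to 21.1 FPKM. Neither Ppara nor Ppard passed the adjusted p in any of the 3 comparisons.

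**Figure D3:**
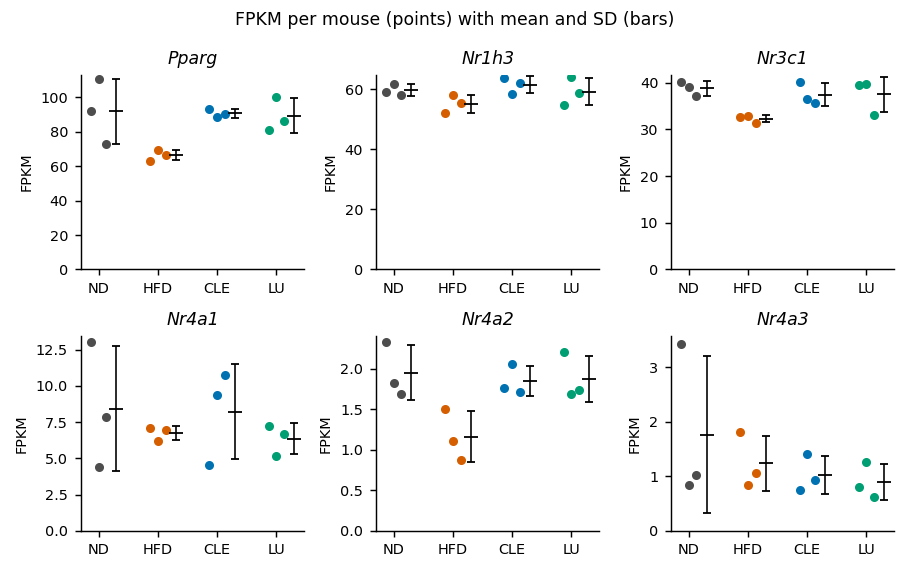
FPKM (vertical axis, from 0) of Pparg, Nr1h3, Nr3c1, Nr4a1, Nr4a2 and Nr4a3 in each mouse (points) of the 4 groups, with the mean and SD (bars). HFD lies below the other groups for Pparg, at 63.2 to 69.3 FPKM, while Nr1h3 stays within 52.1 to 64.1 FPKM and ND mouse 2 stands apart for Nr4a1 and Nr4a3.

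In the retinoid and thyroid hormone group, a retinoic acid receptor rose and a thyroid hormone receptor fell in HFD. Rara, the alpha receptor of retinoic acid (chr11:98927818-98974942, plus strand), was at 5.23, 5.74 and 5.64 FPKM in ND, 8.99, 10.2 and 9.65 in HFD, 7.13, 6.14 and 8.23 in CLE and 8.07, 6.29 and 9.66 in LU. All HFD mice were above all ND mice, and LU overlapped HFD. It rose by 0.70 ± 0.13 (SE; 95% interval 0.41 to 0.99, adjusted p = 0.00117) in HFD against ND, and was called in each of the 12 fits without 1 library. The difference was -0.39 ± 0.13 (adjusted p = 0.0441) in CLE against HFD, an adjusted p over 0.05 in 9 of those 12 fits, and -0.25 ± 0.13 (adjusted p = 0.183) in LU against HFD.

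Rarg, the gamma receptor, was at 19.8, 18.3 and 22.8 FPKM in ND, 14.6, 12.5 and 13.3 in HFD, 17.8, 18.8 and 19.5 in CLE and 19.6, 16.8 and 19.4 in LU. Every HFD mouse lay below every other mouse. The difference was -0.55 ± 0.10 (adjusted p = 0.000798) in HFD against ND, just under 1.5-fold, 0.45 ± 0.10 (adjusted p = 0.00527) in CLE against HFD and 0.44 ± 0.10 (adjusted p = 0.00821) in LU against HFD. Without HFD mouse 12 or ND mouse 3 the first of these was called, at -0.61 and -0.62 (adjusted p = 0.00158 and 0.000892). Rarb, the beta receptor, shares 1793 of 5265 exonic bases with Top2b on the other strand and stood near the filter at 1.07 to 1.8 FPKM, with 0.28 ± 0.10 (adjusted p = 0.0495) in CLE against HFD, which was over 0.05 in 9 of the 12 fits without 1 library.

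Thra, the alpha receptor of thyroid hormone (chr11:98740638-98769006, plus strand), was at 78.9, 74.2 and 80.8 FPKM in ND, 43.5, 46 and 46.9 in HFD, 66.9, 71.7 and 54.7 in CLE and 67.8, 53.4 and 58.8 in LU. HFD was lowest, ND highest and CLE and LU lay between, with no overlap between HFD and any other group. It fell by 0.76 on the log2 scale in HFD against ND (SE 0.11, adjusted p = 0.000199), called in all 12 fits without 1 library. The difference was 0.48 ± 0.11 (adjusted p = 0.00679) in CLE against HFD, and 0.60 and called without CLE mouse 11 (adjusted p = 0.00175). In LU against HFD it was 0.39 ± 0.11 (adjusted p = 0.0261), and over 0.05 in 5 of the 12 fits, up to 0.0972 without LU mouse 2. The last exons of Thra overlap those of Nr1d1 on the other strand by 263 bases, and the strand setting of the counting was not given in the sources used here, so reads there cannot be told apart. The transcript Thra-202, which ends before Nr1d1 begins, was at 22.1, 22 and 21.6 FPKM in ND, 12.4, 14.1 and 14.7 in HFD, 18.8, 21.4 and 14.8 in CLE and 19.1, 14.8 and 16.9 in LU, where HFD mouse 18, at 14.7, lay just under the lowest CLE and LU mice.

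Among the RXR genes, Rxra was at 71, 65.4 and 58.1 FPKM in ND, 58.5, 59.9 and 53.3 in HFD, 91.2, 85.7 and 68.5 in CLE and 75, 68.3 and 71.8 in LU. CLE mice were above all HFD mice, and HFD overlapped ND. The difference was 0.50 ± 0.11 (SE; 95% interval 0.25 to 0.75, adjusted p = 0.00615) in CLE against HFD, and it was called without CLE mouse 11 (0.62, adjusted p = 0.00116). In LU against HFD it was 0.32 ± 0.11 (adjusted p = 0.0573). Rxrb and Rxrg ranged over 14.9 to 18.1 and 10.4 to 18.7 FPKM, and the beta thyroid receptor Thrb over 5.92 to 7.51 FPKM, and none of the 3 passed the adjusted p in these comparisons.

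The clock receptors held the largest difference among the 31 members tested. Nr1d1 and Nr1d2 encode REV-ERB alpha and beta, heme-binding repressors of the clock gene Arntl, and both swing widely over the day in many tissues. The time of day at which tissue was taken was not given in the sources used here. Nr1d1 lies at chr11:98767932-98775333 and Nr1d2 at chr14:18204054-18239127, both on the minus strand. Their RefSeq promoter windows (GRCm38.p6) are shown since these are the 2 clock receptors called in CLE against HFD, capitals again marking AGGTCA or its reverse complement:
Nr1d1, chr11:98775328-98775627, minus strand: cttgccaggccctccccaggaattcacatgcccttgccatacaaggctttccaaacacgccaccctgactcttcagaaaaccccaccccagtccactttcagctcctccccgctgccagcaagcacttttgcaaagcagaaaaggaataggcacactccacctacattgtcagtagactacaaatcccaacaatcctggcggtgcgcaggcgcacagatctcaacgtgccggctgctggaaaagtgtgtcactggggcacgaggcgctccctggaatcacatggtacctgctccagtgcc
Nr1d2, chr14:18239057-18239356, minus strand: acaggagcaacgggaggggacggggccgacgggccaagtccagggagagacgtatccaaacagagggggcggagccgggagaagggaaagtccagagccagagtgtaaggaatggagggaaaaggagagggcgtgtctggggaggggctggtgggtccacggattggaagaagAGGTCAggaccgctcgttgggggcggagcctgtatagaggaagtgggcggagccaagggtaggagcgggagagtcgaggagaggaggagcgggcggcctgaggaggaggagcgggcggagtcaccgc
The hexamer was found once in the Nr1d2 window, 77 bases before the start, and 0 times in that of Nr1d1. The E-box CACGTG, bound by CLOCK and BMAL1, was in neither window, and lay in 7.15% of all windows.

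Nr1d1 was at 32.7, 37.7 and 26.6 FPKM in ND, 24.1, 15.3 and 22.1 in HFD, 61.1, 66.7 and 44.3 in CLE and 57.3, 32.8 and 35.6 in LU. Every HFD mouse was below every mouse of the other groups, and CLE was above ND without overlap. Nr1d1 rose by 1.44 ± 0.24 (SE; 95% interval 0.93 to 1.96, adjusted p = 0.000789) in CLE against HFD and by 0.98 ± 0.24 (SE; 95% interval 0.46 to 1.49, adjusted p = 0.0106) in LU against HFD, and both calls held in all 12 fits without 1 library. In HFD against ND it fell by 0.64 on the log2 scale (SE 0.24, adjusted p = 0.0391), and this call was lost without HFD mouse 15 (-0.45, adjusted p = 0.155), HFD mouse 18 (-0.71, 0.0569), ND mouse 2 (-0.63, 0.087) or ND mouse 3 (-0.53, 0.122). A letter R stands in the labels of 4 libraries (mice 3 and 4 of ND, 4 of CLE and 2 of LU) and in those of 0 HFD libraries. Of these, ND mouse 3, CLE mouse 4 and LU mouse 2 had the highest Nr1d1 value of their groups, and ND mouse 4 had the lowest of ND. With the letter as a covariate the difference of Nr1d1 between HFD and ND was -0.41 (adjusted p = 0.201) and not called. In that fit Nr5a2 also lost its call in CLE against HFD (0.53, adjusted p = 0.0815), and the other calls of the 3 comparisons held.

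Nr1d2 was at 19.9, 16.9 and 10.7 FPKM in ND, 14.8, 10.2 and 14 in HFD, 19.9, 24.2 and 19.6 in CLE and 21.8, 20 and 15.4 in LU. CLE and LU lay above HFD, and ND overlapped every group. It rose by 0.68 ± 0.21 (SE; 95% interval 0.22 to 1.14, adjusted p = 0.0273) in CLE against HFD, and the call was lost without CLE mouse 2 (0.72, adjusted p = 0.05), CLE mouse 4 (0.59, 0.0981) or HFD mouse 15 (0.53, 0.107). The difference was 0.53 ± 0.21 (adjusted p = 0.0849) in LU against HFD and -0.25 ± 0.21 (adjusted p = 0.352) in HFD against ND. Rora, an activator at the sites the REV-ERB receptors use, ranged over 6.11 to 9.94 FPKM and its difference was -0.10 (95% interval -0.44 to 0.24), -0.02 (95% interval -0.36 to 0.32) and -0.08 (95% interval -0.42 to 0.26) in the 3 comparisons. Rorb ranged over 0 to 0.0529 FPKM.

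Of the 3 steroid receptors tested, Nr3c1 alone passed the adjusted p in a comparison with HFD. Nr3c1, the glucocorticoid receptor (chr18:39410545-39519421, minus strand), was at 40.2, 39.2 and 37 FPKM in ND, 32.8, 32.8 and 31.4 in HFD, 40.2, 36.5 and 35.7 in CLE and 39.6, 39.7 and 33.1 in LU. HFD was below all other mice without overlap, by a small margin to LU mouse 8. The difference was -0.26 ± 0.09 (SE; 95% interval -0.45 to -0.06, adjusted p = 0.0309) in HFD against ND, 0.20 ± 0.09 (SE; 95% interval 0.01 to 0.40, adjusted p = 0.0969) in CLE against HFD and 0.20 ± 0.09 (SE; 95% interval 0.01 to 0.40, adjusted p = 0.112) in LU against HFD, all with intervals inside 1.5-fold. The adjusted p for HFD against ND was over 0.05 in 5 of the 12 fits without 1 library, up to 0.0911 without HFD mouse 18. Taking the highest transcript in place of the sum, it was -0.75 (adjusted p = 0.00188) and called.

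Nr3c2, the mineralocorticoid receptor, was at 3.21, 3.75 and 4.33 FPKM in ND, 4.18, 4.53 and 4.96 in HFD, 2.8, 3.5 and 3.91 in CLE and 5.14, 3.95 and 5.43 in LU. CLE lay below HFD and LU without overlap, and ND overlapped every group, with -0.34 ± 0.13 (adjusted p = 0.0666) in CLE against HFD. That adjusted p was 0.0424 without CLE mouse 11 and 0.0473 without LU mouse 3. Esr1, the main estrogen receptor of fat, ranged over 9.55 to 13.9 FPKM, with differences of 0.04 (95% interval -0.23 to 0.31), -0.00 (95% interval -0.27 to 0.27) and -0.14 (95% interval -0.41 to 0.13) in the 3 comparisons. Esr2, the second estrogen receptor, was below the filter at 0.338, 0.251 and 0.417 FPKM in ND, 0.0593, 0.0621 and 0.0267 in HFD, 0.275, 0.197 and 0.235 in CLE and 0.0819, 0.119 and 0.0927 in LU. At these low levels HFD was lowest and ND and CLE highest, and no test was made. Pgr, the progesterone receptor, did not pass 0.0183 FPKM.

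Of the NR4A receptors, which are induced within minutes by many signals and bind DNA with no known ligand, Nr4a2 alone passed the adjusted p. Nr4a1 (chr15:101254269-101274795, plus strand) was at 13, 4.43 and 7.88 FPKM in ND, 7.1, 6.19 and 6.99 in HFD, 4.53, 9.38 and 10.8 in CLE and 7.21, 5.16 and 6.69 in LU. ND mouse 2 was highest and ND mouse 3 lowest, so that ND spanned all other mice. Nr4a3 (chr4:48045153-48086447, plus strand) was at 3.43, 0.836 and 1.03 FPKM in ND, 1.81, 0.849 and 1.07 in HFD, 0.742, 1.41 and 0.93 in CLE and 0.797, 1.27 and 0.627 in LU, again highest in ND mouse 2. Their 95% intervals in HFD against ND, -0.18 (95% interval -0.89 to 0.53) for Nr4a1 and -0.21 (95% interval -0.84 to 0.43) for Nr4a3, were the widest of the 31 members. Without ND mouse 2 the estimate of Nr4a1 was 0.16 and that of Nr4a3 0.19.

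Nr4a2 (chr2:57106830-57124003, minus strand) was at 2.33, 1.83 and 1.69 FPKM in ND, 1.5, 1.1 and 0.877 in HFD, 1.77, 2.06 and 1.71 in CLE and 2.21, 1.69 and 1.74 in LU. All 3 HFD mice were below every other mouse. The difference was -0.45 ± 0.12 (SE; 95% interval -0.72 to -0.18, adjusted p = 0.00982) in HFD against ND, 0.41 ± 0.12 (adjusted p = 0.0256) in CLE against HFD and 0.42 ± 0.12 (adjusted p = 0.0268) in LU against HFD. In the fits without 1 library the adjusted p stayed under 0.05 in all 12 for ND, and passed it in 4 for CLE and in 3 for LU, up to 0.106 and 0.109 without HFD mouse 18. For a gene this low the pseudocount matters, and with a pseudocount of 0.1 in place of 1 these differences were -0.72, 0.65 and 0.67, and all were called (adjusted p = 0.00818, 0.0204 and 0.0226).

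The COUP-TF receptors Nr2f1 and Nr2f2, orphan regulators of vessel, mesenchyme and adipocyte development, were lower in HFD and higher again with both supplements. Nr2f1 (chr13:78188973-78199757, minus strand) was at 4.43, 3.73 and 3.59 FPKM in ND, 1.68, 1.6 and 1.73 in HFD, 3.93, 2.95 and 3.44 in CLE and 3.16, 3.72 and 2.34 in LU. The HFD mice lay close together, under every other mouse. Nr2f1 fell by 0.88 on the log2 scale in HFD against ND (SE 0.13, adjusted p = 0.000181), rose by 0.73 ± 0.13 (SE; 95% interval 0.45 to 1.01, adjusted p = 0.00125) in CLE against HFD and rose by 0.59 ± 0.13 (SE; 95% interval 0.31 to 0.88, adjusted p = 0.00599) in LU against HFD. The LU call sat at the fold threshold and was lost without HFD mouse 15 (0.58), LU mouse 2 (0.57) or LU mouse 3 (0.48).

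Nr2f2 (chr7:70351944-70366735, minus strand) was at 14.4, 7.72 and 11.8 FPKM in ND, 4.46, 5.21 and 5.59 in HFD, 8.62, 8.83 and 9 in CLE and 9.12, 8.3 and 8.04 in LU. Again all HFD mice were lowest, CLE and LU mice lay close together at 8.04 to 9.12 FPKM in LU and 8.62 to 9 in CLE, and ND mouse 3 overlapped them from below. Nr2f2 fell by 0.98 on the log2 scale in HFD against ND (SE 0.17, adjusted p = 0.000513), rose by 0.69 ± 0.17 (SE; 95% interval 0.33 to 1.06, adjusted p = 0.00778) in CLE against HFD and rose by 0.64 ± 0.17 (SE; 95% interval 0.28 to 1.01, adjusted p = 0.0149) in LU against HFD. The LU call was lost without HFD mouse 12 (0.57, adjusted p = 0.0617) or LU mouse 2 (0.60, 0.0506). With the highest transcript alone, Nr2f1 and Nr2f2 were not called against HFD in either supplement group, at 0.34 and 0.50 in CLE and 0.38 and 0.48 in LU. The 5 endothelial markers, cells in which Nr2f2 is known to act, summed to 307 to 491 FPKM in ND, 215 to 351 in HFD, 374 to 543 in CLE and 419 to 480 in LU, and their part in the result was not tested. Mesothelial markers summed to 9.85 to 59.7 FPKM in ND, 2.32 to 7.29 in HFD, 7.65 to 12.6 in CLE and 8.31 to 17.3 in LU, and their part was likewise not tested.

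**Figure D4:**
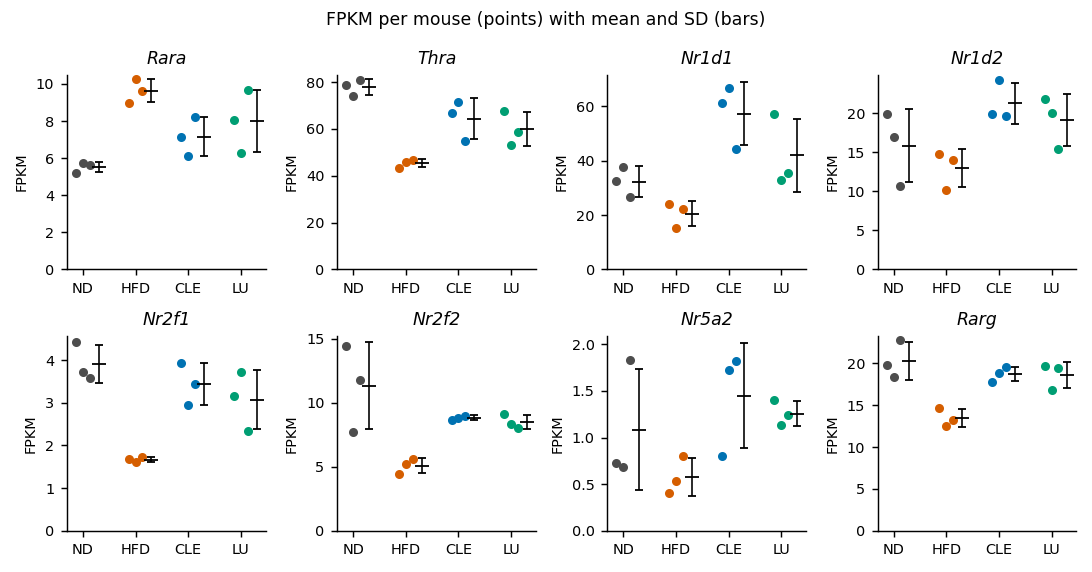
FPKM (vertical axis, from 0) of the 7 nuclear receptors called in at least 1 comparison with HFD, and of Rarg, in each mouse (points) of the 4 groups, with the mean and SD (bars). HFD is lowest for Thra, Nr1d1, Nr2f1, Nr2f2 and Rarg with no overlap, and Rara is highest in HFD, at 8.99 to 10.2 FPKM, with LU overlapping it.

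The remaining receptors of that branch did not pass the adjusted p in the 3 comparisons. Nr2f6 ranged over 13.2 to 21.9 FPKM, Nr2c1 over 4.51 to 5.9 and Nr2c2 over 8.65 to 12.4. Nr2c2 stood at 11.6, 11.2 and 12.3 FPKM in HFD and 9.41, 9.02 and 9.45 in ND (0.30 ± 0.12 (adjusted p = 0.0515)). Nr2f6 shares 1622 of its 2983 exonic bases with Ocel1 on the other strand, and Nr2c2 shares 4590 of 14935 with Mrps25, so both values are uncertain. Hnf4a, a receptor of liver and gut, reached 1.05 FPKM in LU mouse 8 and 0.703 in ND mouse 2, with 0.0197 as its lowest value. Nr2e3 did not exceed 0.029 FPKM.

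Esrra and Esrrg, estrogen-related receptors of mitochondrial genes, ranged over 10.2 to 15.4 and 0.44 to 2.26 FPKM. Esrrg was highest in HFD mouse 12, at 2.26 FPKM, and stood at 1.17 in CLE mouse 11. Skeletal muscle markers had their highest sums in these libraries, at 6.44 FPKM in HFD mouse 12 and 16.2 in CLE mouse 11. The part of muscle in the Esrrg values was not tested. The difference of Esrrg was 0.51 ± 0.23 (adjusted p = 0.086) in HFD against ND, while without ND mouse 4 it was 0.68 (adjusted p = 0.0377) and called. Nr5a2, known from liver and steroid-making cells, was at 0.732, 0.688 and 1.83 FPKM in ND, 0.402, 0.533 and 0.801 in HFD, 0.799, 1.72 and 1.82 in CLE and 1.4, 1.13 and 1.24 in LU. Values were low and CLE overlapped HFD at CLE mouse 2. Nr5a2 rose by 0.61 ± 0.21 (SE; 95% interval 0.15 to 1.07, adjusted p = 0.043) in CLE against HFD, a call that was lost without HFD mouse 12 (0.53, adjusted p = 0.134), HFD mouse 15 (0.59, 0.102), CLE mouse 4 (0.52, 0.138), CLE mouse 11 (0.50, 0.128), LU mouse 2 (0.61, 0.0555), LU mouse 3 (0.61, 0.054) or LU mouse 8 (0.61, 0.0541). Nr6a1 ranged over 0.76 to 1.76 FPKM and Nr5a1 over 0.0315 to 0.344.

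The receptors of bile acids, xenobiotics and vitamin D were all under the filter. Vdr, the vitamin D receptor, was at 0.435, 0.356 and 0.304 FPKM in ND, 1.34, 0.89 and 0.98 in HFD, 0.254, 0.471 and 1.39 in CLE and 0.632, 0.781 and 0.874 in LU. HFD was above ND without overlap, CLE mouse 11 was highest of all, and no test was made. The bile acid receptor Nr1h4 ranged over 0.283 to 0.676 FPKM, and the xenobiotic receptors Nr1i2 and Nr1i3 did not exceed 0.0627 and 0.12 FPKM. Esrrb did not exceed 0.0904 FPKM.

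Genes around these receptors were counted from lists of their targets, ligand enzymes and related genes. Each count is to be read beside the shares of all genes called, which were 14.9% higher and 10.8% lower in HFD against ND, 6.34% and 10.2% in CLE against HFD and 4.77% and 7.68% in LU against HFD. Each median log2 fold change is given in that order of comparisons, beside -0.02, 0.01 and 0.03 over all genes tested. Of 19 PPARG targets of adipocytes, Scd1 was listed at 0 in 9 libraries and at 9764, 10170 and 8592 FPKM in HFD, and was left out because a 0 beside such values can be a failed estimate. Of the other 18, 2 were called higher and 8 lower in HFD against ND, 8 higher and 1 lower in CLE against HFD, and 5 higher and 0 lower in LU against HFD, with medians of -0.48, 0.41 and 0.26. The 4 with the largest change in HFD against ND were Pck1, Cidea, Plin4 and Fabp5, a fatty acid carrier. Pck1, the enzyme of glyceroneogenesis, fell by 2.36 on the log2 scale (adjusted p = 1.88e-06) and rose by 1.94 ± 0.18 (adjusted p = 3.11e-05) in CLE and 1.59 ± 0.18 (adjusted p = 0.000213) in LU against HFD. Plin4, a lipid droplet coat protein, fell by 1.23 (adjusted p = 2.57e-05) and rose by 1.18 ± 0.14 (adjusted p = 8.95e-05) and 0.93 ± 0.14 (adjusted p = 0.000723). Cidea, a lipid droplet protein, fell by 1.33 (adjusted p = 0.00026), with 0.16 ± 0.20 (adjusted p = 0.575) and 0.11 ± 0.20 (adjusted p = 0.728) against HFD. Fabp5 rose by 1.04 ± 0.25 (adjusted p = 0.0053) in HFD against ND. Of the 6 adipocyte markers given above, 5 are themselves in this list, so the marker sum is no separate reading of it. Among the 13 targets that are not markers, 2 were called higher and 3 lower in HFD against ND, 3 higher and 1 lower in CLE against HFD, and 3 higher and 0 lower in LU against HFD.

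Of 8 LXR targets tested, 3 were called higher and 1 lower in HFD against ND, 1 higher and 2 lower in CLE against HFD, and 2 higher and 1 lower in LU against HFD, with medians of 0.22, -0.07 and -0.07. The phospholipid transfer protein Pltp rose by 2.38 ± 0.16 (adjusted p = 9.27e-07) in HFD against ND and differed by -1.42 ± 0.16 (adjusted p = 7.98e-05) in CLE and -1.02 ± 0.16 (adjusted p = 0.00105) in LU against HFD. The sterol exporter Abcg1 rose by 0.94 ± 0.15 (adjusted p = 0.000312) and the small GTPase Arl4c by 0.85 ± 0.12 (adjusted p = 0.000108) in HFD against ND. The lipoprotein gene Apoe moved the other way, at -0.70 ± 0.13 (adjusted p = 0.00103). The exporter Abca1, a textbook LXR target, differed by 0.18 (95% interval -0.04 to 0.40) in HFD against ND.

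Of 10 glucocorticoid targets and ligand enzymes tested, 4 were called lower in HFD against ND, and 2 were called higher in each supplement group against HFD, with medians of -0.44, 0.44 and 0.35. Hsd11b1, the enzyme that regenerates active glucocorticoid, was at 176, 201 and 169 FPKM in ND, 56.4, 49.4 and 41.7 in HFD, 91.4, 112 and 55.8 in CLE and 80.3, 80.7 and 92.6 in LU. HFD was lowest, ND highest, and CLE mouse 11 lay just under HFD mouse 12. Hsd11b1 fell by 1.87 on the log2 scale in HFD against ND (adjusted p = 2.45e-05), and rose by 0.76 ± 0.21 (adjusted p = 0.0157) in CLE and 0.78 ± 0.21 (adjusted p = 0.0174) in LU against HFD. Zbtb16, a glucocorticoid-induced transcription factor, fell by 0.85 (adjusted p = 0.00475) and rose by 1.31 ± 0.20 (adjusted p = 0.000577) and 0.99 ± 0.20 (adjusted p = 0.00487). Klf9 and Errfi1 were the others called lower, at -0.91 ± 0.18 (adjusted p = 0.00133) and -0.59 ± 0.19 (adjusted p = 0.0257). Fkbp5, a glucocorticoid-induced chaperone, was highest in CLE mouse 4 at 79.1 FPKM, and its differences were -0.18 (95% interval -0.98 to 0.61), 0.96 (95% interval 0.17 to 1.75) and 0.12 (95% interval -0.67 to 0.92) in the 3 comparisons. These intervals are not adjusted for the number of genes, and Fkbp5 did not pass the adjusted p in any of the 3.

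Of 15 clock genes, 2 were called higher and 2 lower in HFD against ND, 2 higher and 1 lower in CLE against HFD, and 0 higher and 2 lower in LU against HFD, with medians of -0.24, 0.10 and 0.16. The 4 of 15 called in HFD against ND are close to the share over all genes. The repressor Bhlhe40 rose by 1.23 ± 0.23 (adjusted p = 0.000929) in HFD against ND and differed by -0.92 ± 0.23 (adjusted p = 0.00887) in CLE and -0.75 ± 0.23 (adjusted p = 0.0299) in LU against HFD. Bhlhe41 rose by 0.75 ± 0.15 (adjusted p = 0.00149), while the period genes Per3 and Per2 fell by 0.88 and 0.59 on the log2 scale (adjusted p = 0.00103 and 0.0137). Per2 and Per3 rose in CLE against HFD by 0.67 ± 0.17 (adjusted p = 0.0111) and 0.60 ± 0.16 (adjusted p = 0.0157). Arntl, which REV-ERB proteins repress, was at 11, 7.62 and 9.06 FPKM in ND, 7.8, 7.96 and 7.07 in HFD, 5.54, 7.05 and 6.38 in CLE and 7, 5.85 and 6.68 in LU. HFD overlapped ND, and all CLE and all LU mice lay below HFD, with differences of -0.24 (95% interval -0.51 to 0.04), -0.24 (95% interval -0.51 to 0.04) and -0.20 (95% interval -0.47 to 0.07). Dbp, an output gene of the clock, had 0.17 (95% interval -0.27 to 0.60), 0.15 (95% interval -0.28 to 0.59) and 0.26 (95% interval -0.17 to 0.69).

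Of 10 tested genes of retinoid and thyroid hormone handling, 1 was called higher and 1 lower in HFD against ND, in CLE against HFD and in LU against HFD, with medians of -0.29, 0.04 and 0.01. Aldh1a2, which makes retinoic acid, rose by 1.42 ± 0.15 (adjusted p = 2.17e-05) in HFD against ND and differed by -1.004 (adjusted p = 0.000546) in CLE and -0.61 ± 0.15 (adjusted p = 0.0138) in LU against HFD. Rbp4, the retinol carrier that fat secretes, fell by 1.74 on the log2 scale (adjusted p = 9.06e-05) and rose by 1.15 ± 0.23 (adjusted p = 0.00282) and 1.09 ± 0.23 (adjusted p = 0.00543).

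Of 10 immediate early genes, 4 were called higher and 0 lower in HFD against ND, 1 higher and 2 lower in CLE against HFD, and 0 higher and 3 lower in LU against HFD, with medians of 0.54, 0.12 and 0.04. Atf3 rose by 4.27 ± 0.44 (adjusted p = 1.46e-05), Egr2 by 3.43 ± 0.40 (adjusted p = 3.34e-05), Fos by 2.07 ± 0.28 (adjusted p = 0.000106) and Egr3 by 0.67 ± 0.16 (adjusted p = 0.00495) in HFD against ND, where 0 of the 3 NR4A genes were called. The level of Atf3 in HFD was 80.1, 64.5 and 68.5 FPKM, against 3.25, 2.53 and 2.42 in ND. Ppargc1a, the coactivator of oxidative metabolism, ranged over 0.783 to 3.32 FPKM with a difference of -0.42 (95% interval -1.16 to 0.31) in HFD against ND.

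**Figure D5:**
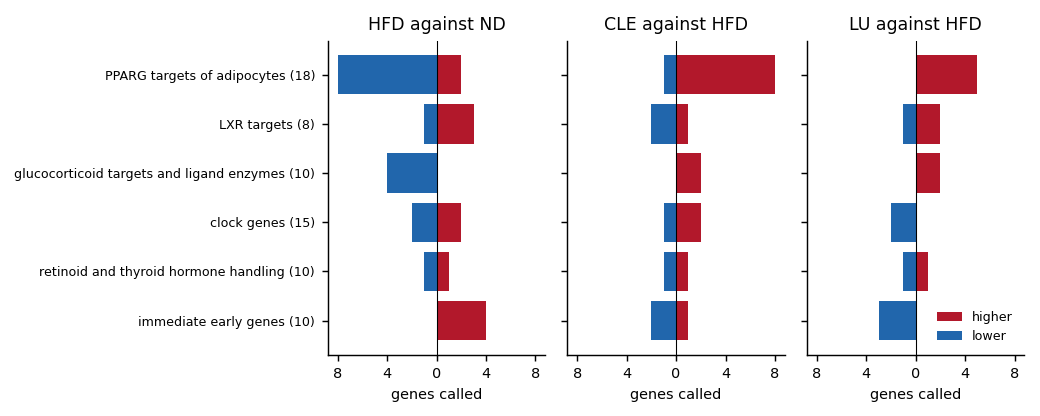
Number of genes called (horizontal axis; higher to the right in red, lower to the left in blue) in each of 6 gene lists around the nuclear receptors, for 3 comparisons, with the number of genes tested in brackets. PPARG targets of adipocytes hold 8 of 18 lower in HFD against ND and 8 of 18 higher in CLE against HFD.

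Against ND, 0 of the 31 receptors were called in either supplement group, where 2.98% of all genes tested were called in CLE and 6.57% in LU. By the adjusted p alone, 0 members passed in CLE, against 5.27% of all genes, and 2 passed in LU, against 12.8%. At an unadjusted p under 0.05 there were 5 members in CLE, against 23.3% of all genes, and 4 in LU, against 27.7%. The 2 that passed in LU were Rara at 0.45 ± 0.13 (adjusted p = 0.0495) and Thra at -0.38 ± 0.11 (adjusted p = 0.0494). For both, the adjusted p was over 0.05 in 9 of the 12 fits without 1 library, up to 0.184 for Rara and 0.139 for Thra. Nr1d1 had the largest estimate in CLE against ND, at 0.80 ± 0.24 (SE; 95% interval 0.29 to 1.32, adjusted p = 0.0679), with all CLE mice above all ND mice. Pparg differed from ND by -0.00 (95% interval -0.29 to 0.29) in CLE and -0.03 (95% interval -0.32 to 0.26) in LU.

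Between CLE and LU, limma called 0 of the 31 receptors, with or without the fold, where 0.0078% of all genes tested were called. At an unadjusted p under 0.05 there was 1 receptor, against 5.21% of all genes. The receptor with the unadjusted p was Nr3c2, at -0.41 ± 0.13 (SE; 95% interval -0.69 to -0.12, adjusted p = 0.898), lower in every CLE mouse than in every LU mouse. Nr1d1 differed by 0.47 (95% interval -0.05 to 0.98) and Pparg by 0.03 (95% interval -0.26 to 0.32). For 24 of the 31 members the 95% interval of the difference lay inside 1.5-fold in both directions, and for the other 7 a difference of that size lay within the interval.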

How the data were processed

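Total RNA of eWAT was sequenced as TruSeq mRNA libraries, 3 mice per group and 12 libraries in all. The deposited FPKM values per transcript were made by the authors with Cufflinks 2.2.1 after alignment with TopHat2 2.0.12 and Bowtie2 2.2.3, per the submitters' processing notes; the genome build and the use of strand were not given in the sources used here. Of 152210 transcript rows, those with an Ensembl transcript (78786), class code = (7139) or class code j (56959) were summed to 23131 genes and 9326 others were left out. The column headed MD4 was taken as ND mouse 4. The table also holds 3 FPKM columns that match no sample and columns of the authors' calls of differential expression, and neither were used.

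Genes that reached 1 FPKM in 3 or more libraries were fitted with limma 3.58.1 (R 4.3.3) on log2(FPKM + 1), all 12 libraries in 1 model with empirical Bayes moderation, and p-values were adjusted over the 12814 genes by Benjamini-Hochberg. The count test of the study could not be repeated on FPKM. With 3 mice against 3, an exact permutation test cannot go below 0.1. The script was tested on simulated data. Positions are from GENCODE M21 (GRCm38), with which 87.6% of the Ensembl transcripts found there share both ends. Full values were given for Pparg, Nr1h3, the NR4A genes, Nr3c1 and each member called against HFD or ND, and, chosen after their values were seen, for Rarg, Rxra, Nr3c2, Esr2 and Vdr, with the other members mostly by range, and from each list at most the 4 called genes with the largest change in HFD against ND beside a few set genes. The members and lists were chosen with earlier results of these data known. Other scalings, filters, pseudocounts, gene sums and left-out libraries were tried as alternatives. The list of coregulators is not reported here.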

Additional observations from a re-analysis of the deposited data

How the results depend on the processing

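The number of receptors called in HFD against ND was 5, and ran from 4 to 7 when each library was left out in turn; the adjusted p alone gave 9. In CLE against HFD, also 5, it ran from 3 to 6 without 1 library. It was 3 with a mean of at least 5 FPKM, without a filter or without class code j, 1 with the highest transcript of each gene, and 12 with the adjusted p alone. In LU against HFD the 3 calls ran from 1 to 3 without 1 library, with 1 for the highest transcript and 7 for the adjusted p alone. In LU against ND the count was 0, ran from 0 to 1 without 1 library, was 1 (Nr2f2, lower) without the libraries with a letter R, a fit in which ND is mouse 2 alone and is assumed to vary like the other groups, and 2 with the adjusted p alone. Fewer receptors were tested with the highest transcript (25), with the higher filter (22) and without class code j (28). With the highest transcript Nr1d2, Nr2f1 and Nr2f2 were tested and lost the call in CLE on their estimates (0.54, 0.34 and 0.50), as did Nr2f1 and Nr2f2 in LU (0.38 and 0.48). The cause was not tested. The sum by GENCODE symbol was added after the data were seen. The other alternatives kept each count within 1.5 times.

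With the mouse number as a replicate block, 0 receptors were called in CLE against ND and 0 in LU against ND, as without it. HFD shares no mouse number with another group, so no such fit was possible there. The numbers are shared by few mice, and deviations of same-numbered mice correlated at -0.10 to 0.19 over genes, so they were taken as names.

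Of 2474 single values of 16 receptors under these alternatives, 2316 kept their direction and their side of the call, 102 kept that side with the other sign or with an estimate of 0.00 in either fit, 39 lost the call, 17 gained it and 0 turned direction with a passing adjusted p. Having 3 mice per group and an unknown depth limits all values, most of all those near 1 FPKM.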

Other observations

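CLE mouse 4 held the highest value of the 12 libraries for 6 of the 42 receptors above 0 FPKM, and ND mouse 2 for 9. ND mouse 4 and LU mouse 8 held it for 5 each, so the count of CLE mouse 4 hardly stands apart. The 42 include receptors below the filter on low values, and the share over all genes was not counted. Among the genes highest in CLE mouse 4 were Nr1d1 at 66.7 FPKM, Nr1d2 at 24.2 FPKM, and the glucocorticoid-induced genes Fkbp5 at 79.1 FPKM and Zbtb16 at 55.8 FPKM, of which Fkbp5 reached at most 34.9 FPKM in any other library. ND mouse 2 held the highest Nr4a1 (13.0 FPKM) and Nr4a3 (3.43 FPKM). Of the immediate early genes, its Fos (14.0 FPKM), Egr1 (11.3 FPKM), Junb, Egr2, Egr3 and Atf3 lay below every HFD library. Its Jun (34.5 FPKM), Ier2 (13.7 FPKM) and Dusp1 (130 FPKM) lay above every HFD library, and its Fosb lay within their range. These genes were singled out after their values were seen.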
